A study of Mus musculus with 4 samples.

Results

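The 35 genes described here encode the enzymes that turn glucose into lactate, the transporters and regulators around them, and the sensors and targets of the response to low oxygen. They were taken by gene symbol from a named list, out of 55450 gene rows in each count file. All 35 symbols were found, on 36 rows, because Aldoa has a second row (ENSMUSG00000114515.2) with 2 to 8 reads per library that was left aside. All 35 passed the filter on low counts and were tested, with the fewest reads, 8, for Egln3 in control 2. RNA came from CD11c+ cells of mesenteric lymph nodes of wild-type C57BL/6J mice, enriched with magnetic beads from pools of 2 nodes. Each pool was divided between a control well, given water, and a treated one, given an Ffar2 agonist at 10 µM, and both were kept for 6 h in medium with serum. Ffar2 is a receptor for short-chain fatty acids, and the compound is not named in the sources used here. This gave 2 control and 2 agonist libraries, numbered 2 and 3 in both groups, so that a number stands for a pool (pool 2 and pool 3). All 4 libraries share the magnetic enrichment and the culture, and the sources used here name neither the age nor the sex of the mice. Both wells of pool 2 held reads of Xist, the RNA of the inactive X chromosome (17776 in control 2, 21194 in agonist 2), and both of pool 3 held 0. Ddx3y, a Y-linked gene, had 0 reads in pool 2 and 18752 and 21461 in pool 3, so pool and sex cannot be told apart.

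Glycolysis splits glucose into pyruvate, and lactate dehydrogenase turns pyruvate into lactate, which regenerates the NAD+ that Gapdh needs. Dendritic cells are known to raise glycolysis when they are activated. When oxygen is low, the prolyl hydroxylases Egln1 and Egln3 no longer mark the transcription factor subunit Hif1a for degradation, and Hif1a then binds promoters that hold the core letters ACGTG or GCGTG. Its known targets include glucose transporters, most glycolytic enzymes, and genes such as Vegfa and Adm. Hif1a is regulated largely as a protein, which read counts do not measure.

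The libraries held 43238375 to 59902172 reads in genes, with 23225 to 23770 genes detected. Levels are given as CPM, which are counts relative to a library's total after correction with trimmed mean of M-values (TMM) factors, and levels of different genes are compared only as CPM per kilobase (kb) of merged exons. The 35 genes together took 0.739% and 0.765% of the reads of control 2 and control 3, and 0.608% and 0.792% of those of agonist 2 and agonist 3. Itgax, which encodes CD11c, was at 189 and 178 CPM in pool 2 (control, agonist) and at 105 and 95.5 CPM in pool 3. All 20 genes of a list of conventional dendritic cell markers were tested, and their summed level was 34226 to 39366 CPM. Markers of other cells were present too. The 15 T cell genes summed to 1199 and 855 CPM in pool 2 and 690.4 and 487 CPM in pool 3, and the 13 B cell genes to 2040.3 and 1865 CPM in pool 2 and 1254 and 1016 CPM in pool 3. The wells of pool 2 differed more than those of pool 3. Of 2002 genes with a mean of at least 100 CPM, 99 were more than 1 log2 unit higher in agonist 2 than in control 2, against 0 in agonist 3 over control 3. More than 1 log2 unit lower were 2 in agonist 2 and 4 in agonist 3.

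The levels of the members spanned a wide range. Per kb, the highest were Aldoa at 445 CPM, Gapdh at 264 and Pfkfb3 at 215, followed by Pkm at 155, Ldha at 127 and Slc2a6 at 119, as means over the 4 libraries. These levels depend on the length used. Merged exons and the longest transcript held 4133 and 3289 bases for Gapdh, 7561 and 4801 for Pfkfb3 and 5001 and 2432 for Pkm. Aldoa (aldolase) cleaves the 6-carbon sugar, Gapdh oxidizes its products, Pkm makes pyruvate and Ldha makes lactate. Pfkfb3 makes fructose 2,6-bisphosphate, the activator of phosphofructokinase, and is not itself a step of the chain. The lowest was Egln3 at 0.213 CPM per kb. Some of the enzymes are undercounted to an unknown degree, since reads that align to more than 1 place were not counted. Of all 50-base stretches of the transcripts of Pgk1, 53.9% occur in transcripts of other genes, against 47.2% for Bnip3, 36.2% for Pgam1, 25.99% for Eno1, 25.8% for Pkm and 25.1% for Gapdh, and 0% for Hk2, Hk3, Slc2a6, Adm and Pdk1 among others. Eno1b, a near-identical copy of Eno1, was itself given 124 to 162 reads per library.

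**Figure D1:**
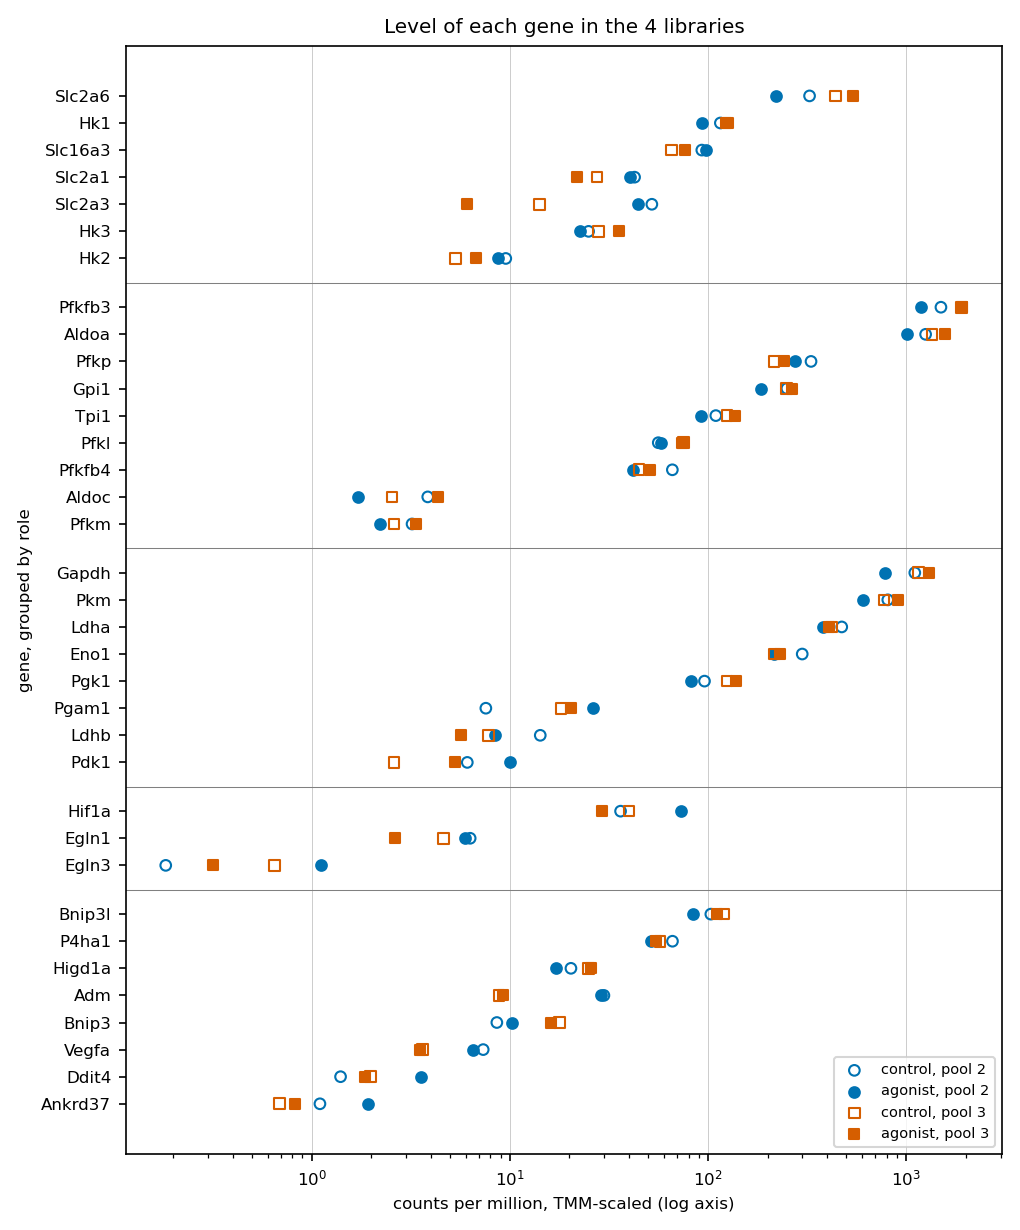
Level of each of the 35 genes in the 4 libraries, in TMM-scaled CPM on a log axis, grouped by role, with circles for pool 2 and squares for pool 3, open for control and filled for agonist. The axis carries no length correction, so it compares libraries for a gene and not genes with each other. For Slc2a3 and Adm both circles lie right of both squares, while Gapdh and Pkm have the filled circle lowest and the filled square highest.

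Transcripts of 1 gene made up most of the level in most isozyme families. Shares below are the percent of a family's summed CPM per kb, where a family holds only genes among the members. With 2 libraries against 2 an exact two-sided permutation test cannot go below p = 0.333, so no share was tested. Lactate dehydrogenase is a tetramer of the subunits made by Ldha, which favours the step to lactate, and Ldhb. Ldha was at 474 and 383 CPM in pool 2 (control, agonist) and at 421 and 410.2 CPM in pool 3. Ldhb was at 14.3 and 8.40 CPM in pool 2 and at 7.81 and 5.66 CPM in pool 3. Ldha thus made up 94.0% and 95.6% of the family in pool 2 and 96.2% and 97.2% in pool 3. The share was higher in the agonist well in both pools, but the groups overlapped (95.1% ± 1.56 in control, 96.4% ± 1.13 with agonist, SD, n = 2).

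The aldolase family was almost wholly Aldoa, at 99.7% to 99.8% in the 4 libraries. Aldoa itself was at 1256 and 1008 CPM in pool 2 and at 1355 and 1564 CPM in pool 3, while Aldoc, the form best known from brain, was at 1.71 to 4.34 CPM. Of the bifunctional regulators, Pfkfb3 made up 93.6% to 96.5%, at 1500.5 and 1193 CPM in pool 2 and 1901 and 1920.5 CPM in pool 3. Pfkfb4 was at 42.0 to 66.2 CPM. Among the prolyl hydroxylases Egln1 made up 79.8% to 96.2%, at 6.32 and 5.96 CPM in pool 2 and 4.63 and 2.64 CPM in pool 3. Egln3 had 8 reads in control 2, 58 in agonist 2, 34 in control 3 and 18 in agonist 3. Between the related mitophagy receptors, Bnip3l made up 79.9% to 87.6%. Bnip3l was at 104 and 83.8 CPM in pool 2 and at 120.4 and 112 CPM in pool 3, and Bnip3, which shares more of its sequence with other genes, at 8.61 to 17.8 CPM.

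Hexokinase and phosphofructokinase were more mixed. Hexokinase phosphorylates glucose on entry. Hk1, at 116 and 93.0 CPM in pool 2 and 123 and 126 CPM in pool 3, made up 61.8% and 58.8% of the family in pool 2 (control, agonist) and 63.0% and 57.9% in pool 3. Hk3, which is best known from myeloid cells, was at 25.01 and 22.7 CPM in pool 2 and 28.0 and 35.5 CPM in pool 3, and made up 31.0% to 37.7%. Hk2, the form that is induced in many activated and tumour cells, was at 9.56 and 8.73 CPM in pool 2 and 5.32 and 6.73 CPM in pool 3, and made up 3.88% to 7.89%. The Hk1 share differed between the agonist and the control well by -2.91 percentage points in pool 2 and by -5.09 in pool 3, and the groups did not overlap (62.4% ± 0.852 against 58.4% ± 0.694, SD, n = 2). Such a separation of 2 against 2 libraries has a two-sided exact permutation p of 0.333, and the shares of every other family overlapped. The Hk1 share depends on how length is counted, at 60.4% on average per kb of merged exons and 72.8% per kb of the longest transcript. Of the phosphofructokinases, which catalyse the committed step, Pfkp was the largest at 57.2% to 72.5%, Pfkl came next at 24.7% to 40.0% and Pfkm, the muscle form, made up 2.21% to 3.33%. Pfkp was at 332 and 276 CPM in pool 2 and 216 and 242 CPM in pool 3. Pfkl went the other way between the pools, at 56.2 and 58.1 CPM in pool 2 and 75.3 and 73.7 CPM in pool 3. Pfkm was at 2.21 to 3.35 CPM.

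The most abundant of the 3 glucose carrier genes on the list was Slc2a6, a carrier that has been placed on lysosomes rather than at the cell surface. It made up 84.0% and 79.6% of the family in pool 2 (control, agonist) and 93.3% and 96.0% in pool 3. Slc2a6 was at 326 and 222 CPM in pool 2 and at 441 and 542 CPM in pool 3. Slc2a1, the widespread carrier GLUT1, was at 42.7 and 40.5 CPM in pool 2 and at 27.6 and 21.9 CPM in pool 3, which is 3.56% to 13.3% of the family. Slc2a3, the high-affinity carrier GLUT3, was at 52.2 and 44.7 CPM in pool 2 and at 14.1 and 6.06 CPM in pool 3, or 0.476% to 7.11%. Levels of Slc2a6 were thus higher in pool 3 and those of Slc2a1 and Slc2a3 lower. The pools did not overlap for these genes, which held for 49.2% of all tested genes too.

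**Figure D2:**
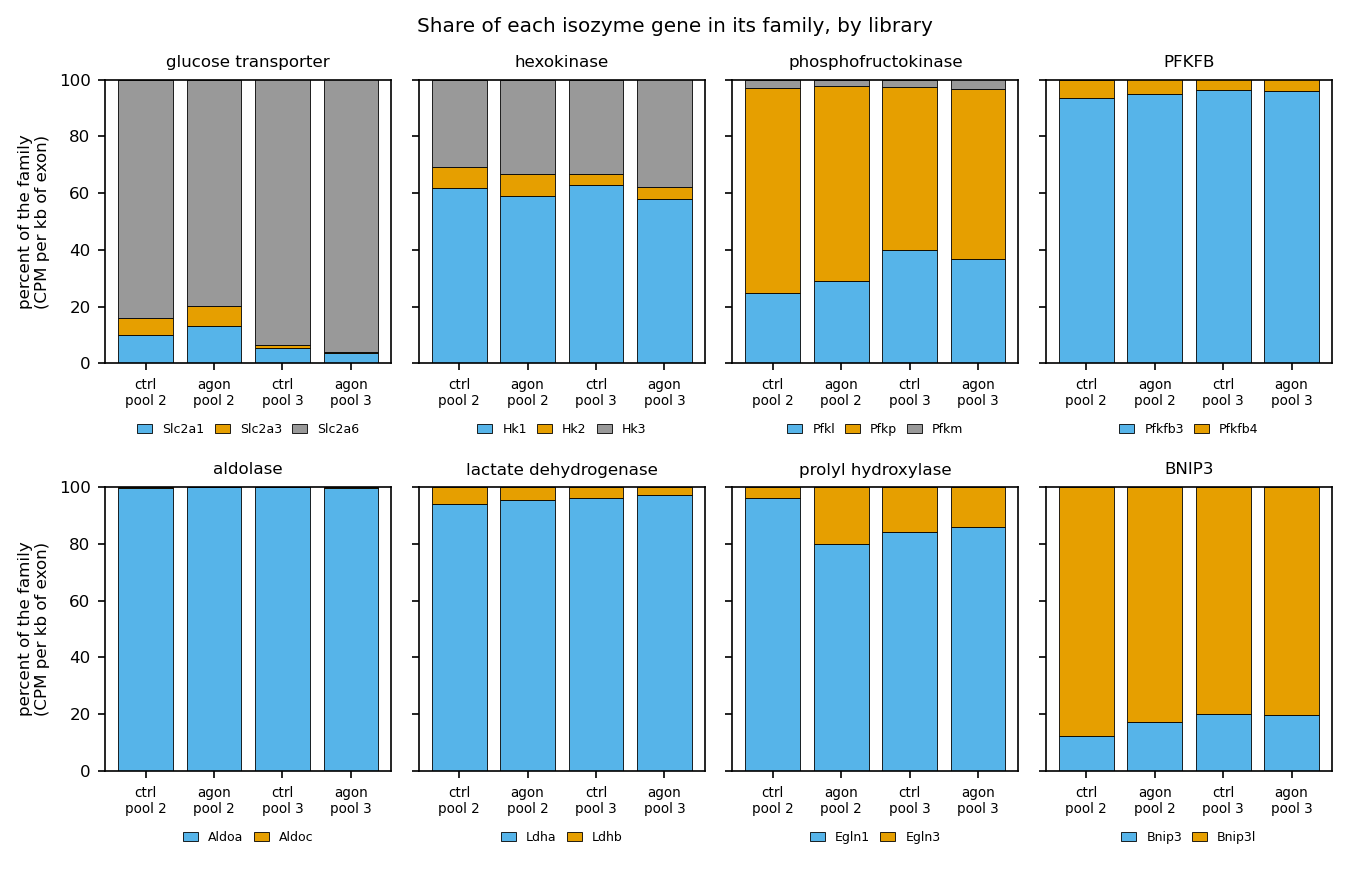
Share of each isozyme gene in its family, in percent of the family's summed CPM per kb of merged exons, as stacked bars for the 4 libraries (ctrl, control; agon, agonist). Ldha, Aldoa and Pfkfb3 fill over 93% of their families in every library, while Slc2a6 takes 79.6% to 96.0% of the glucose transporters.

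The core letters that Hif1a is known to bind were searched in the members' promoters. The 250 bases before the RefSeq start site (build GRCm38.p6) are shown for both lactate dehydrogenase genes and for a surface and the lysosomal glucose carrier, because the genes of each pair differ in level. Ldha has a pair of RefSeq windows, and the first is printed. Capitals mark ACGTG or GCGTG on the strand shown, or CACGT or CACGC where the letters lie on the other strand. Each is written 5′ to 3′ on the gene's own strand. Ldha (chr7:46845554-46845803, plus strand) holds CACGTG at 2 places, each of which reads ACGTG on both strands, and 1 further CACGT. Its other window (chr7:46846832-46847081), not printed, holds 1 GCGTG and no ACGTG. Ldhb (chr6:142507958-142508207, minus strand) holds 1 GCGTG and no ACGTG, like the other window of Ldha. Slc2a1 (chr4:119108495-119108744, plus strand) holds 1 ACGTG and 1 GCGTG, the latter on the other strand. Slc2a6 (chr2:27027999-27028248, minus strand) holds 4 GCGTG over both strands and no ACGTG.
Ldha: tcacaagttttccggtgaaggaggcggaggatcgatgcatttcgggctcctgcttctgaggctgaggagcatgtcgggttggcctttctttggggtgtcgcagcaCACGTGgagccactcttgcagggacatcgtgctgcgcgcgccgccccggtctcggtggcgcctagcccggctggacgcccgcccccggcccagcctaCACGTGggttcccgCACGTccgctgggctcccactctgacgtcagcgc
Ldhb: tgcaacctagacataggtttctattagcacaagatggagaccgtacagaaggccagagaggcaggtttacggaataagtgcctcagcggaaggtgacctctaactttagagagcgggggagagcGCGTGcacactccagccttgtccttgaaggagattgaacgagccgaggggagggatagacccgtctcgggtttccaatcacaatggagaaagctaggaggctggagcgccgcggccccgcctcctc
Slc2a1: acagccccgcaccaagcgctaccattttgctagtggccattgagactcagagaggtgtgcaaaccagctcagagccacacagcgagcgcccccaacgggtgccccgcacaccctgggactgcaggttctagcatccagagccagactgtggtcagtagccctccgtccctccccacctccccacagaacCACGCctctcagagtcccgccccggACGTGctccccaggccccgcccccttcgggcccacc
Slc2a6: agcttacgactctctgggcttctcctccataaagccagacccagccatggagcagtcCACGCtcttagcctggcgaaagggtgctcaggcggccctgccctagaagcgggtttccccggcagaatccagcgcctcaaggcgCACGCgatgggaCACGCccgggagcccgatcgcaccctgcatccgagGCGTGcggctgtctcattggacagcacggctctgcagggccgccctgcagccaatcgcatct
Of the 35 genes, 33 matched the promoter table by symbol. ACGTG was found on either strand in a window of 19 of these 33 genes (57.6%), against 18.5% of the 27025 genes in the table. GCGTG was found for 69.7% against 30.9%, and CACGTG, the E-box that also contains ACGTG on both strands and is bound by other factors, for 15.2% against 6.86%. Members with several windows have more chances to match. Counted by window, ACGTG or GCGTG was found in 83.0% of 47 against 38.6% of 32851. Base composition moves with this, since the median GC content was 61.6% in the members' windows and 52.4% in all windows, and its part in the difference was not tested. A match is a string of letters and not a binding site.

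The agonist moved no member past the test. By the quasi-likelihood test of edgeR, adjusted over 18297 genes, 0 of 35 members were called, with a background of 0% of all genes. At an unadjusted p under 0.05 the count was 0 of 35 as well, against 1.58% of all genes. DESeq2 called 0 members and 0.0383% of all genes. With the pool as a replicate block, 0 of 35 passed the adjusted threshold (0.00547% of all genes, which is the single gene Igha), and Pgam1 and Pdk1 had an unadjusted p under 0.05, or 2 of 35 against 3.53% of all genes. Every member's adjusted p by edgeR was 0.9999 without the block and 0.9998 with it. The log2 fold changes of agonist over control ran from -0.65 to 0.86, and their median was -0.06, beside -0.05 over all tested genes. The members' median was 0.11 without agonist 2 and 0.05 without control 2. For 17 of 35 members the 95% interval lay wholly within a 2-fold change in either direction, and for 24 with the block, while for the others the interval did not exclude a change of that size. CPM of the groups did not overlap for 3 members, with Pgam1 above and Ldha and P4ha1 below in the agonist wells, where 25% of all genes did not overlap.

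The member with the smallest p was Pgam1, phosphoglycerate mutase, which moves the phosphate group within the 3-carbon acid. It was at 7.58 CPM in control 2 and 26.3 CPM in agonist 2, and at 18.2 CPM in control 3 and 20.5 CPM in agonist 3. Control 2 was the low library, and the log2 difference was 1.79 in pool 2 and 0.17 in pool 3. The fitted log2 fold change was 0.86 (SE 0.48, 95% interval -0.29 to 2.01, edgeR), and 0.98 (0.03 to 1.93) with the replicate block. Its copy Pgam1-ps2 had 1 read in control 2 and 21 in agonist 2, and 10 and 8 in pool 3.

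Pdk1 encodes the kinase that switches off pyruvate dehydrogenase and so keeps pyruvate out of the mitochondrion. Its level was 6.11 CPM in control 2 and 10.0 CPM in agonist 2, and 2.60 CPM in control 3 and 5.29 CPM in agonist 3. It was higher in the agonist well of both pools, by 0.71 and 1.01 on the log2 scale, yet the groups overlapped because both wells of pool 3 were low. The fitted log2 fold change was 0.81 (SE 0.57, interval -0.58 to 2.21, edgeR), and 0.87 (0.03 to 1.70) with the block. Ldhb, whose levels are given above, was lower in the agonist well of both pools, by -0.76 and -0.46, with a fitted value of -0.65 (SE 0.45, interval -1.75 to 0.45, edgeR). Slc2a3 was lower by -0.22 in pool 2 and by -1.21 in pool 3. Its fitted value was -0.39 (SE 0.96, interval -2.71 to 1.94, edgeR), and -0.71 (-1.45 to 0.03) with the block.

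Of the oxygen sensors, Hif1a went opposite ways in the pools. Its level was 36.3 CPM in control 2 and 73.4 CPM in agonist 2, the highest of the 4, and 40.0 CPM in control 3 and 29.2 CPM in agonist 3, the lowest. The fitted log2 fold change was 0.43 (SE 0.46, interval -0.68 to 1.54, edgeR), and without agonist 2 it was -0.35. Egln1, the main hydroxylase acting on Hif1a, was at 6.32 and 5.96 CPM in pool 2 (control, agonist) and at 4.63 and 2.64 CPM in pool 3. Its fitted value was -0.35 (SE 0.53, interval -1.63 to 0.94, edgeR). Egln3, itself a known hypoxia target, was higher by 2.37 in pool 2 and lower by -0.95 in pool 3 on the log2 scale, at very few reads. Of the targets, Ddit4, an inhibitor of mTORC1 signalling, was at 1.40 and 3.58 CPM in pool 2 and 1.99 and 1.85 CPM in pool 3. Its fitted value was 0.68 (SE 0.58, interval -0.72 to 2.07, edgeR). Ankrd37 was at 1.10 and 1.92 CPM in pool 2 and 0.689 and 0.829 CPM in pool 3, with a fitted value of 0.62 (SE 0.71, interval -1.10 to 2.34, edgeR), which was -0.08 without agonist 2. Neither gene separated the groups. With each library left out in turn, the fitted value of Pgam1 ran from 0.36 (without control 2) to 1.70 (without control 3), that of Pdk1 from 0.32 (without agonist 2) to 1.55 (without control 2) and that of Ldhb from -0.94 (without control 3) to -0.15 (without control 2). That of Ddit4 ran from 0.16 (without agonist 2) to 1.07 (without agonist 3). Slc2a3 ran from -2.41 (without agonist 2) to 0.84 (without control 2) and Egln1 from -1.01 (without agonist 2) to 0.12 (without agonist 3). These fitted values thus changed direction, as those of Hif1a and Ankrd37 did. The fits had no pool block, so leaving out a library also left the pools unequal between the groups. Within the pools, Slc2a3 and Egln1 were lower with the agonist in both and Ankrd37 was higher in both, while Hif1a went opposite ways.

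Behind the median near 0 lay opposite directions in the pools. In pool 2, 26 of 35 members (74.3%) were lower with the agonist, at a median log2 of -0.25, beside 55.99% of all tested genes and a median of -0.09. In pool 3, 22 of 35 were higher, at a median of 0.10, beside a median of -0.0048 over all genes. Without the TMM factors, scaled by library totals only, 18 of 35 were higher in pool 3. In all, 18 members (51.4%) were lower in pool 2 and higher in pool 3, against 28.1% of all tested genes, and these differences come from single libraries, with no replicate check. In upper glycolysis, from Gpi1 to Tpi1 with the Pfkfb genes, 8 of 9 did so, with Pfkl as the exception. Gpi1, glucose-6-phosphate isomerase, went from 251 to 185 CPM in pool 2 and from 249 to 266 CPM in pool 3. Gapdh went from 1107 to 788 CPM and from 1157 to 1314 CPM. Pkm went from 809 to 608 CPM and from 773 to 907 CPM. Of the 3 sensing genes, Hif1a and Egln3 were higher in pool 2 and lower in pool 3, and Egln1 was lower in both.

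The 17 members that encode enzymes of the chain from glucose to lactate summed to 4969 CPM in control 2 and 4899 CPM in control 3. The sum was 3859 CPM in agonist 2 and 5485 CPM in agonist 3. It leaves out enzyme genes that are not members, such as Eno2, Eno3 and Pgam2. The controls lay between the agonist wells, at 4934 ± 49.1 CPM against 4672 ± 1150.1 CPM (SD, n = 2), and the log2 ratio of the sums was -0.08, or 0.15 without agonist 2. Tpi1, triose-phosphate isomerase, was at 109.7 and 91.9 CPM in pool 2 and 125 and 137 CPM in pool 3. Eno1, an enolase, was at 299 CPM in control 2 and at 216 to 232 CPM in the other libraries. Per kb, Eno3, an enolase gene outside the members, was at 136 CPM as a mean over the libraries and Eno1 at 44.8. That gap depends on the length used, since the merged exons of Eno1 hold 5379 bases and its longest transcript 2027. Eno1 is also among the genes that may be undercounted, as said above. Slc16a3, the exporter of lactate known as MCT4, was at 93.2 and 98.3 CPM in pool 2 and at 65.5 and 76.7 CPM in pool 3, higher in the agonist well of both. P4ha1, a collagen prolyl hydroxylase, was at 66.3 and 51.5 CPM in pool 2 and 57.5 and 54.4 CPM in pool 3. Higd1a, a mitochondrial protein induced by hypoxia, was at 17.1 to 25.8 CPM. None of the tested T cell, B cell, plasmacytoid dendritic cell or NK cell markers passed the test for the agonist. Their values were lower in both pools for 13 of 15 T cell genes (median log2 -0.54), 10 of 13 B cell genes (-0.21), 6 of 9 plasmacytoid dendritic cell genes (-0.43) and 7 of 10 NK cell genes (-0.27), beside 5094 of all 18297 tested genes. The other lists were lower in both pools for fewer of their genes. The counts were 5 of 20 conventional dendritic cell, 4 of 15 monocyte and macrophage, 3 of 9 plasma cell, 2 of 8 stromal and endothelial and 0 of 6 neutrophil genes. The plasma cell genes, Igha among them, summed to 588 and 211 CPM in pool 2 (control, agonist) and to 418 and 142 CPM in pool 3. The part of these cells in the members' values was not tested, and in such bulk samples fewer cells of a type and less RNA per cell cannot be told apart.

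**Figure D3:**
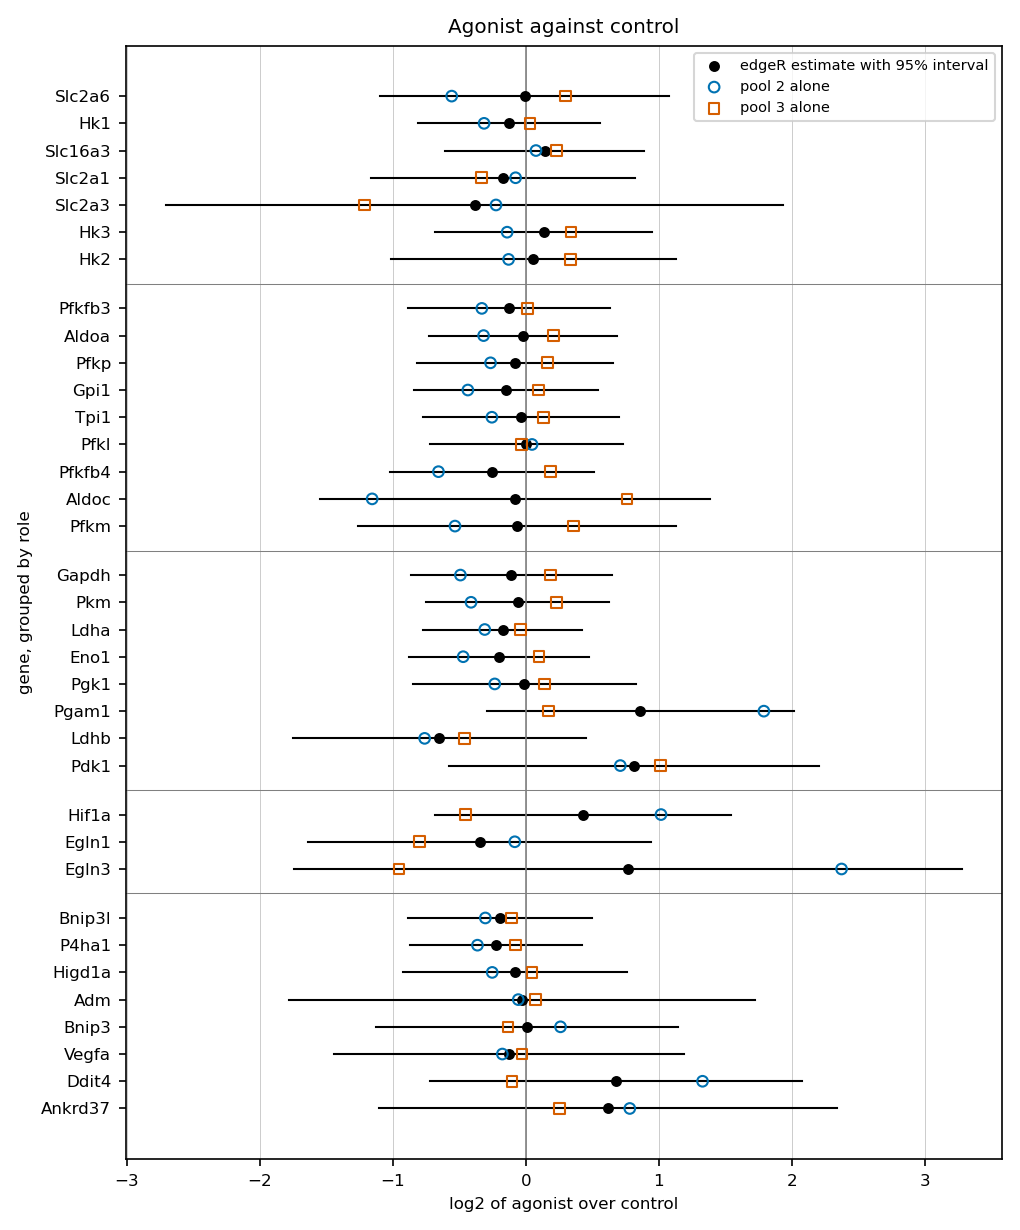
Agonist over control for the 35 genes on a log2 scale, grouped by role, with the edgeR estimate and its 95% interval as dots and bars and the difference within pool 2 and pool 3 as open symbols. Each interval spans 0, from the lowest estimate of -0.65 (Ldhb) to the highest of 0.86 (Pgam1), and most pool 2 symbols lie left of the pool 3 symbols.

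The pools differed more than the treatments. Pool 3 was compared with pool 2 in a fit with group as a term, so that its p-values measure only the spread between the wells of a pool. One of 35 members was called by edgeR, with Slc2a3 lower in pool 3, beside 0.394% of all genes called and 0.29% called lower. At an unadjusted p under 0.05 the count was 8 of 35 (22.9%), against 13.9% of all genes. Of these, Pgk1, Slc2a6 and Bnip3 were higher in pool 3 and Slc2a1, Slc2a3, Pdk1, Vegfa and Adm lower. DESeq2 called 2 members, Slc2a3 and Adm, both lower, beside 3.86% of all genes. CPM of the pools did not overlap for 12 members that were higher and 11 that were lower in pool 3, or 65.7%, where 49.2% of all genes did not overlap. The members had no common direction, with a median log2 difference of -0.03, beside -0.0061 over all genes.

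Slc2a3, at 52.2 and 44.7 CPM in pool 2 and 14.1 and 6.06 CPM in pool 3, differed by -2.38 on the log2 scale (SE 0.34, interval -3.15 to -1.61, edgeR adjusted p = 0.0325). It was lower by -1.89 between the control wells and by -2.87 between the agonist wells. The call was lost with library totals as the scaling and without the group term, where the difference was -2.46 and -2.26. Fits with a library left out also had no group term. In these the difference was -2.14 without control 2, -3.01 without control 3, -2.36 without agonist 2 and -1.77 without agonist 3. Without control 2, control 3 or agonist 3 the call of Slc2a3 was lost too. Adm, which encodes the vasodilator peptide adrenomedullin, was at 29.9 and 28.7 CPM in pool 2 and at 8.84 and 9.29 CPM in pool 3, a difference of -1.69 (SE 0.30, interval -2.38 to -1.01, edgeR adjusted p = 0.0589). Vegfa, the vascular growth factor, was at 7.35 and 6.501 CPM in pool 2 and 3.62 and 3.54 CPM in pool 3 (edgeR adjusted p = 0.308). Pgk1, phosphoglycerate kinase, is on the X chromosome, and was at 96.2 and 81.8 CPM in pool 2, the pool with Xist, and at 125 and 138 CPM in pool 3 (edgeR adjusted p = 0.348). None of the 8 hypoxia targets was called between the pools in the main edgeR fit. With no filter on low counts, or with a stricter one, edgeR called Adm lower. Markers of other cells moved with the pool. The T cell genes had a median log2 difference of -1.12, the plasmacytoid dendritic cell genes of -0.85 and the monocyte and macrophage genes of -0.54, with the last summing to 5979.8 and 5333 CPM in pool 2 and 3357 and 3694 CPM in pool 3, while the conventional dendritic cell genes had one of 0.04. Their part in the values of Slc2a3 and Adm was not tested.

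**Figure D4:**
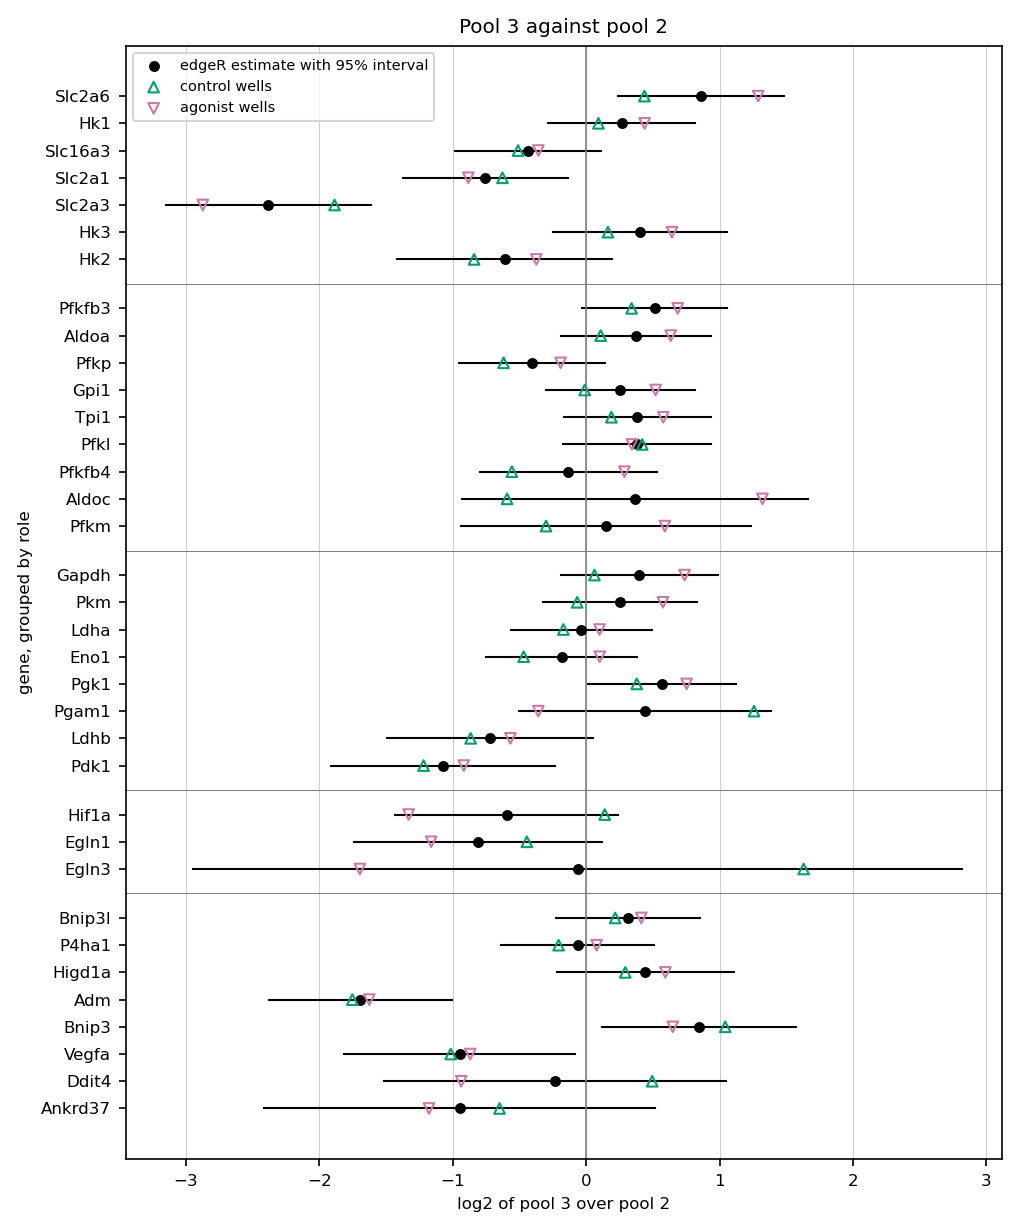
Pool 3 over pool 2 for the 35 genes on a log2 scale, grouped by role, with the edgeR estimate and its 95% interval as dots and bars and the difference between the control wells and between the agonist wells as open symbols. Slc2a3 and Adm lie farthest left, at -2.38 and -1.69, and Slc2a6 and Bnip3 farthest right, at 0.86 and 0.85.

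The genes around the pathway were also not called for the agonist. In 6 lists, edgeR called 0 of 20 tested genes of glycolysis and gluconeogenesis outside the members, 0 of 10 of the pentose phosphate pathway, 0 of 12 of pyruvate entry into mitochondria, 0 of 13 of the hypoxia-inducible factor pathway, 0 of 25 further hypoxia-induced genes and 0 of 12 regulators of glucose and nutrient use. Their median log2 fold changes were -0.16, -0.03, 0.07, -0.01, -0.02 and 0.01, beside -0.05 over all genes. The same lists held 0 genes at an unadjusted edgeR p under 0.05, against 1.58% of all genes. With the replicate block they held 3 (Arrdc4, Epas1 and Egln2, all higher), against 3.53% of all genes. None of these passed the adjusted threshold. Pck1, which starts gluconeogenesis from oxaloacetate, was at 1.93 CPM in control 2 against 0.0385 CPM in agonist 2, and at 0.440 and 0.335 CPM in pool 3, with a log2 fold change of -2.64 (SE 1.25, edgeR). Mpc2, a subunit of the mitochondrial pyruvate carrier, was at 7.28 and 29.1 CPM in pool 2 and 14.1 and 14.7 CPM in pool 3, a change of 1.03 (SE 0.50, edgeR). This is the pattern of Pgam1, with a low control 2 and a high agonist 2. Arrdc4, a glucose-responsive regulator of glucose uptake, had a log2 fold change of 0.92, and 1.05 with the block. Epas1, the sister subunit of Hif1a, had one of 1.26, and 1.71 with the block. Its level was low, at 1.75 and 2.90 CPM in pool 2 (control, agonist) and 0.268 and 1.90 CPM in pool 3. Control 3 held 14 reads of Epas1, and its edgeR interval without the block was -0.93 to 3.45. For Egln2, a further prolyl hydroxylase, the change was 0.69 (interval -0.33 to 1.71). Egln2 was at 18.5 and 49.3 CPM in pool 2 and 40.8 and 46.5 CPM in pool 3. Arrdc4 was at 6.48 and 21.1 CPM in pool 2 and 15.4 and 20.3 CPM in pool 3. Control 2 was thus the low library for Egln2 and Arrdc4, as for Pgam1. Between the pools, edgeR called 1 gene of these 6 lists, beside 0.394% of all tested genes. It was Tfrc, the transferrin receptor and a hypoxia target, from the 25 further hypoxia-induced genes. Tfrc was at 82.3 and 65.0 CPM in pool 2 and 21.7 and 21.2 CPM in pool 3 (log2 -1.77, edgeR adjusted p = 0.0361).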

How the data were processed

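RNA-seq was analysed from 4 libraries, 2 control and 2 agonist, grouped by their titles. The deposited files hold raw counts of reads per gene. The submitters' processing notes name STAR 2.7, HTSeq 0.11.1 and the build GRCm38 (mm10). No source used here gives the strand setting, and the SMART-seq v4 kit named in the labels' protocols keeps no strand information, so sense and antisense reads at overlapping genes cannot be told apart. Reads aligned to more than 1 place (6.54% to 6.98% of reads) and reads outside genes (15.96% to 19.99%) were left out of the library sizes.

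Counts of the 18297 genes kept by the expression filter (minimum count 10) were tested in R 4.3.3 with edgeR 4.0.16, two-sided, Benjamini-Hochberg adjusted over all tested genes at 0.05. Group was the only term, and DESeq2 1.42.0, limma 3.58.1, other scalings and filters, and the pool as a replicate block were alternatives. The labels' protocols say that each pool was divided between wells, and same-numbered libraries deviated together (correlation 0.288 over genes). The sources used here do not say whether the 2 pools came from separate mice. Reads of Xist only in pool 2 and of Ddx3y only in pool 3 show pools of different sex, which share no mouse. The p-values measure the spread between these libraries. SE came from the fold change and the F statistic. Differences within a pool are log2 CPM with a prior count of 2. All 55450 gene identifiers matched GENCODE M21, which gave exon lengths. Promoter windows came from a RefSeq table. The test was checked on simulated counts. Those for the agonist held no difference between the pools, so that check does not cover the spread between pools.

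The members and the lists were chosen with earlier results of these data known. Described in full were the members with the 6 smallest p-values for the agonist, with and without the block, each called for the pool, and every isozyme of the families formed from members. Up to 4 genes per pathway list were eligible by p, and Tfrc was named as the only call. Gpi1, Gapdh, Pkm and the other members were chosen after their values were seen.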

Additional observations from a re-analysis of the deposited data

How the results depend on the processing

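For the agonist, 0 members were called under every alternative run, and 71 of 71 values of single members under other settings kept their direction and their side of the threshold. Over all genes the count of 0 became 9 with no filter, 7 with DESeq2, and 1, 6 and 2 with the replicate block in edgeR, DESeq2 and limma-voom, and ran from 0 to 2 with a library left out. With the replicate block the members' median was -0.09. With a library left out, in fits without the block and so with the pools unequal between the groups, 27 of 32 values kept their direction. Slc2a3 became 0.84 without control 2 and 0.43 without agonist 3 (range -2.41 to 0.84), Ankrd37 -0.076 without agonist 2 (-0.076 to 1.10), Hif1a -0.35 without agonist 2 (-0.35 to 0.94) and Egln1 0.12 without agonist 3 (-1.01 to 0.12). The members' median ran from -0.26 to 0.11, the latter without agonist 2.

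Between the pools, the count of members called was 2 with no filter, a stricter filter (minimum count 50), DESeq2 or limma-voom. These were Slc2a3 and Adm each time, both lower in pool 3. The count was 0 with library totals or without the group term. It ran from 0, without control 3 or agonist 3, to 4 without agonist 2. Over all genes the 72 calls became 600 with no filter, 170 with the stricter filter, 706 with DESeq2, 275 with limma-voom, and 5 with library totals and without the group term, and ran from 1 without control 3 to 1575 without agonist 2 (841 without control 2, 10 without agonist 3). The median of the members was 0.0894 with the stricter filter and ran from -0.0708 to 0.12 with a library left out. The cause of these differences was not tested.

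Isozyme shares moved with the length used, since it enters each share directly. Per longest transcript the mean shares were 72.8% for Hk1, 99.9% for Aldoa and 97.2% for Ldha. With no length they were 76.3% for Hk1, 79.1% for Pfkp, 96.9% for Pfkfb3, 97.9% for Ldha and 89.0% for Bnip3l, and the Ldha difference with the agonist was 0.617 percentage points. With a library left out, that difference ran from 0.137 to 2.34 points for Ldha, from -8.15 to 7.14 for Pfkp, from -1.03 to 1.83 for Pfkfb3, from -9.07 to 7.31 for Slc2a6, from -6.18 to 1.51 for Bnip3l and from -4.60 to -3.40 for Hk1. In pool 2, 26, 26 and 25 members were lower with the agonist under TMM, DESeq2 size factors and library totals, and in pool 3, 13, 13 and 17; these scalings were chosen after seeing the data.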
